A study of Mus musculus with 22 samples.

Results

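Plasma proteins are made mostly by hepatocytes, and 7 genes for such proteins are described here: Serpina1c, Alb, Trf, Apoc3, Apoa1, Apoa2 and Gpx3. They were chosen by name, out of 19938 genes measured, because earlier results of these data had set metastasis-like primary tumours apart from other islet tumours, so the difference between these 2 tumour groups is given for them as a description, with no test. Each gene was read from the probe set that the platform annotation pairs with that symbol alone; all 7 had 1 such probe set. The name under which they were grouped, plasma proteins gained by metastasis-like primaries, held for the mean of every gene but rested on overlapping arrays for Alb and Apoa2, and the mean of Apoa2 in metastasis-like primaries (7.89 log2) was below that of normal islets (8.38 log2).

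The samples were tissues of RIP1-TAG2 mice, in which the rat insulin promoter drives the SV40 T antigen in pancreatic beta cells, so that islets pass through hyperplasia and vessel growth to tumours. There were 3 liver metastases, 5 metastasis-like primaries (labelled Met-like primary), 5 islet tumours, 3 angiogenic islets, 3 hyperplastic islets and 3 normal islets, all labelled with the same RIP1-TAG2 genotype, the normal islets included. The labels give no ages, no account of how a primary was called metastasis-like and nothing on which samples came from separate animals, so p-values measure the spread between these samples, which may in part be technical. Total RNA from each sample was hybridised to 1 Affymetrix Mouse Gene 1.0 ST array, and all values below are log2 intensities unless they are named as differences or folds; array medians lay between 7.08 and 7.22. In bulk RNA of this kind, a smaller share of one cell type and less RNA per cell cannot be told apart.

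Albumin is the most abundant protein of plasma and carries fatty acids, hormones and metals. Serpina1c belongs to the mouse alpha-1-antitrypsin family, inhibitors of neutrophil elastase, and transferrin (Trf) carries iron to cells. Apoa1 and Apoa2 are the main proteins of high-density lipoprotein, Apoc3 slows the breakdown of triglyceride-rich lipoproteins, and Gpx3 is the secreted glutathione peroxidase, made chiefly by the kidney. In hepatocytes, many genes of plasma proteins are driven by HNF4, FOXA and C/EBP factors, some of which also serve in beta cells. Hepatocytes also hold messages of enzymes that are not secreted, such as Cyp2e1, a cytochrome P450, and Cps1, which starts the urea cycle.

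In the RefSeq annotation of GRCm38.p6, Serpina1c lies at chr12:103894926-103904950, beside the other Serpina1 genes, and Alb at chr5:90460870-90476602. Apoa1 (chr9:46228630-46230469) and Apoc3 (chr9:46233050-46235636) are close neighbours, and Trf lies farther along the same chromosome at chr9:103208876-103230286. Apoa2 is at chr1:171221564-171226379 and Gpx3 at chr11:54902854-54910387. The upstream sequences of Serpina1c and its paralog Serpina1d are shown because both genes were far higher in metastasis-like primaries than in islet tumours and their sequences are closely alike. Each is the 250 bases upstream of the annotated start from RefSeq (GRCm38.p6), written 5′ to 3′ on the strand of the gene, with the longest unbroken run that both share in capitals: chr12:103904951-103905200 (minus strand) for Serpina1c and chr12:103773634-103773883 (minus strand) for Serpina1d.
Serpina1c: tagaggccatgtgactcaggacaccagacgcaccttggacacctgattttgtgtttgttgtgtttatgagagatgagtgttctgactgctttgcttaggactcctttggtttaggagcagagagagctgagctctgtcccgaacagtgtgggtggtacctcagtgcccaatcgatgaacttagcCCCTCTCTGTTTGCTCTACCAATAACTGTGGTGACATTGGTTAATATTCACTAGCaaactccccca
Serpina1d: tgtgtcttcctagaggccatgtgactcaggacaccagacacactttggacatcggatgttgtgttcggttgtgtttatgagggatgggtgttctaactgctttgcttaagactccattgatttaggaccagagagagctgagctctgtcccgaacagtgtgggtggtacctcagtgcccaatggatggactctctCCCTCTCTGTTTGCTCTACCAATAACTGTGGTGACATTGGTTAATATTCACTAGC
The shared run is 55 bases long and begins 66 bases before the start in Serpina1c and 55 before it in Serpina1d. The longest runs that Serpina1c shared with Serpina1a, Serpina1b and Serpina1e were 66, 72 and 70 bases, while that shared with Alb was 9 bases. Upstream entries were found for 5 of the 7 genes. CAAAGNNCA, a part of many HNF4 sites, was searched on both strands and was in none of the 5, against 5.49% of 32851 entries of the same length.

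The 7 genes were highest in liver metastases, with every liver metastasis array above every metastasis-like primary for 6 of them, and their place in the metastasis-like primaries split them into groups. The means of Serpina1c, Gpx3 and Trf lay nearer to liver metastases than to islet tumours. Those of Alb and Apoc3 lay nearer to islet tumours. Apoa1 and Apoa2 averaged at or below the level of normal islets. The plot of the 7 genes on all arrays shows these 3 patterns.

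**Figure D1:**
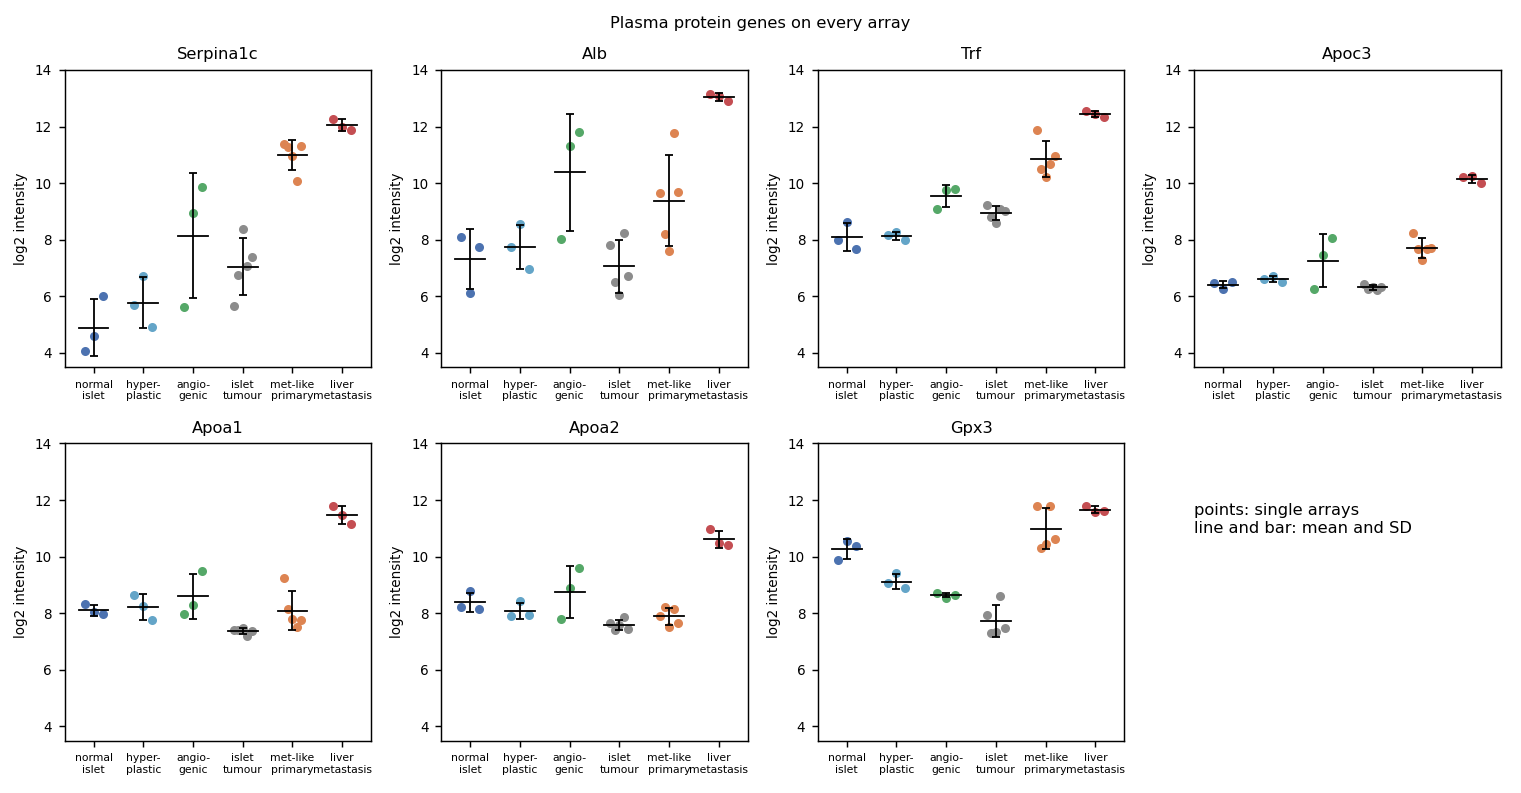
Log2 intensity of each plasma protein gene (vertical axis) in the 6 tissues (horizontal axis), with a point for each array and a line and bar for the mean and SD. The labels do not say that metastasis-like primaries follow islet tumours, although they are drawn to their right. Serpina1c and Gpx3 in the 5 metastasis-like primaries reach at least 10.09 and 10.30, above all 5 islet tumours, whereas Apoa2 overlaps between these tissues.

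Serpina1c, the protease inhibitor, had the largest difference. In metastasis-like primaries it stood at 11.39 (I-9812-MLP), 11.27 (II-648-MLP), 10.94 (II-6413-MLP), 10.09 (III-8016-MLP) and 11.30 (III-8023-MLP), against 5.66, 6.74, 8.38, 7.08 and 7.40 in islet tumours (I-9811-tumor, II-649-tumor, II-6415-tumor, III-8017-tumor and III-8024-tumor). It reached 12.28, 12.00 and 11.88 in liver metastases. The metastasis-like primaries lay above all islet tumours and below all liver metastases. The difference of means was 3.95 ± 0.60 (log2, SE), or 15.4-fold, between metastasis-like primaries and islet tumours, and 1.06 ± 0.70 between liver metastases and metastasis-like primaries. Normal islets held 4.06, 4.62 and 6.01 and hyperplastic islets 5.70, 6.73 and 4.91. These 2 groups overlapped each other.

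The Serpina1 genes are near-identical copies, so a probe set of one may also bind messages of the others. The probe sets assigned jointly to several of them, given below, include Serpina1c itself. Neither these nor Serpina1d are therefore read as separate support for Serpina1c. Serpina1d, which was not among the 7, averaged 9.62 in metastasis-like primaries and 6.71 in islet tumours, a difference of 2.90 ± 0.30 (SE, adjusted p = 2.05e-07). Here and below, p is from limma, a linear model over all arrays, adjusted over all genes, and a gene is called where it is below 0.05. In liver metastases it was 9.59, which differed from metastasis-like primaries by -0.02 (95% interval -0.75 to 0.70). The arrays of these 2 tissues overlapped for Serpina1d. The 2 probe sets that the annotation assigns jointly to Serpina1a to Serpina1e averaged 11.59 ± 0.32 and 12.19 ± 0.29 in metastasis-like primaries (SD, n = 5), against 8.51 ± 0.92 and 9.43 ± 0.83 in islet tumours (SD, n = 5). In liver metastases they averaged 11.93 ± 0.14 and 12.46 ± 0.10, against 6.28 ± 0.35 and 7.22 ± 0.39 in normal islets (SD, n = 3 each). Serpina1f, the other member of the family list with a probe set of its own, differed by 0.05 between metastasis-like primaries and islet tumours and was not called.

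Gpx3, the secreted peroxidase, averaged less in each of the hyperplastic, angiogenic and tumour stages than in normal islets. It stood at 9.87, 10.56 and 10.36 in normal islets, 9.07, 9.41 and 8.88 in hyperplastic islets, and 8.70, 8.55 and 8.63 in angiogenic islets. Islet tumours were lower still or level with angiogenic islets, at 7.94, 7.29, 7.33, 8.60 and 7.47. In metastasis-like primaries it was 11.79, 10.30, 10.46, 11.78 and 10.63, and in liver metastases 11.81, 11.58 and 11.60. No metastasis-like primary overlapped an islet tumour, and their range overlapped with those of both liver metastases and normal islets. The difference between metastasis-like primaries and islet tumours was 3.27 ± 0.27 (SE), or 9.63-fold, and 2.74 ± 0.23 without I-9812-MLP and III-8016-MLP, the 2 highest. Liver metastases exceeded metastasis-like primaries by 0.67 ± 0.32 (1.20 ± 0.25 without those 2 arrays), and metastasis-like primaries exceeded normal islets by 0.73 ± 0.32 (0.20 ± 0.25 without them).

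Trf, the iron carrier, was 11.87, 10.52, 10.22, 10.68 and 10.98 in metastasis-like primaries, against 9.22, 8.79, 8.60, 9.09 and 9.0 in islet tumours. Liver metastases held 12.56, 12.44 and 12.34, and normal islets 7.98, 8.64 and 7.66. The 3 tumour groups did not overlap, and the metastasis-like primaries exceeded the islet tumours by 1.91 ± 0.23 (SE), or 3.77-fold. The liver metastases exceeded the metastasis-like primaries by 1.59 ± 0.27.

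Alb varied most among the metastasis-like primaries. It was 9.67 in I-9812-MLP, 8.20 in II-648-MLP, 7.61 in II-6413-MLP, 11.78 in III-8016-MLP and 9.68 in III-8023-MLP. Islet tumours held 7.80, 6.50, 6.04, 8.24 and 6.72, liver metastases 13.16, 13.08 and 12.89, and normal islets 8.10, 6.12 and 7.74. Of the metastasis-like primaries, 3 exceeded all islet tumours, while II-648-MLP and II-6413-MLP lay within the range of islet tumours. The difference of means was 2.33 ± 0.71 (SE) between metastasis-like primaries and islet tumours and 3.66 ± 0.82 between liver metastases and metastasis-like primaries. The array with the highest Alb, III-8016-MLP, had the lowest Serpina1c of its group and a mean of 10.60 over 7 acinar cell genes, against 12.09 to 12.65 in the other 4 metastasis-like primaries. Whether the content of exocrine pancreas bears on its Alb was not tested.

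Apoc3, the lipase inhibitor, stood at 8.25, 7.68, 7.28, 7.68 and 7.70 in metastasis-like primaries, against 6.45, 6.25, 6.34, 6.23 and 6.35 in islet tumours. The groups did not overlap and differed by 1.39 ± 0.22 (SE). Liver metastases, at 10.21, 10.24 and 9.99, exceeded the metastasis-like primaries by 2.43 ± 0.25.

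Apoa1, its chromosomal neighbour, was 9.26 in I-9812-MLP and 8.15, 7.79, 7.51 and 7.75 in the other metastasis-like primaries, against 7.42, 7.40, 7.49, 7.18 and 7.38 in islet tumours. The groups touched without overlapping, since III-8016-MLP (7.51) was barely above II-6415-tumor (7.49). Their difference was 0.72 ± 0.28 (SE), and normal islets, at 8.33, 8.03 and 7.96, averaged as much as metastasis-like primaries (difference -0.02 ± 0.32). Within samples whose titles share a prefix, whose meaning the labels do not give, Apoa1 in metastasis-like primaries exceeded islet tumours by 1.84 under prefix I, 0.52 under II and 0.35 under III. I-9812-MLP also had the highest mean of 2 red blood cell genes in its group (8.08, against 6.62 to 7.08 in the other 4); their part in the Apoa1 value was not tested. Liver metastases, at 11.80, 11.47 and 11.16, exceeded metastasis-like primaries by 3.39 ± 0.32.

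Apoa2 had the smallest difference of the 7. It was 7.90, 8.21, 7.52, 8.14 and 7.66 in metastasis-like primaries, against 7.66, 7.42, 7.57, 7.86 and 7.46 in islet tumours. The groups overlapped, with a difference of 0.29 ± 0.23 (SE, 95% interval -0.19 to 0.78). Both lay below or level with normal islets (8.23, 8.77 and 8.15), while liver metastases held 10.96, 10.48 and 10.40.

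Of the 7 genes, 5 had every metastasis-like primary above every islet tumour (Serpina1c, Gpx3, Trf, Apoc3 and Apoa1), where 7.85% of all genes did. In the same comparison 12.3% of all genes were called higher and 14.2% lower. Nothing is read from these counts, since that contrast chose the genes. Their median difference was 1.91, against -0.02 over all genes. By prefix the differences kept their direction, which is given as a description, since the genes were chosen on these same arrays. Serpina1c differed by 5.73 under prefix I, 3.54 under II and 3.46 under III. Gpx3 differed by 3.86, 3.07 and 3.17, and Alb by 1.87, 1.64 and 3.25. Between liver metastases and metastasis-like primaries, 6 of the 7 did not overlap, against 11.4% of all genes. All 3 liver metastases carry prefix I, and under that prefix alone Gpx3 differed by -0.13 between liver metastases and I-9812-MLP and Serpina1c by 0.67, whereas Alb differed by 3.38.

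The genes were tested where neither group had chosen them. In liver metastases all 7 were higher than in normal islets, where 20.8% of all genes were called higher at an adjusted p below 0.05. Serpina1c was higher by 7.16 ± 0.78 (SE, 143-fold, adjusted p = 1.36e-07), Alb by 5.72 ± 0.91 (52.8-fold, adjusted p = 2.23e-05) and Trf by 4.36 ± 0.30 (20.5-fold, adjusted p = 3.29e-10). Apoc3 was higher by 3.73, Apoa1 by 3.37 and Apoa2 by 2.23, and Gpx3 had the smallest difference, 1.40 ± 0.35 (adjusted p = 0.00252). Liver metastases did not overlap with normal islets for any of the 7, where 25.4% of all genes had every liver metastasis above every normal islet. Against angiogenic islets, liver metastases were also higher for all 7, where 18.4% of all genes were called higher, with differences between 1.86 for Apoa2 and 3.91 for Serpina1c. The call of Alb in that comparison (2.66 ± 0.91, adjusted p = 0.0251) was lost without AngiogenicI-93 (adjusted p = 0.21), I-9820-Met (0.0626) or I-9821-Met (0.0599).

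In the premalignant stages, 4 of the 7 were called higher in angiogenic islets than in normal islets, where 11.8% of all genes were. These were Serpina1c (3.25 ± 0.78, adjusted p = 0.0041), Alb (3.06 ± 0.91, adjusted p = 0.0181), Trf (1.46 ± 0.30, adjusted p = 0.00126) and Apoc3 (0.85 ± 0.28, adjusted p = 0.0302). Gpx3 was lower (-1.64 ± 0.35, adjusted p = 0.00186; 13% of genes were called lower). Apoa1 and Apoa2 differed by 0.48 and 0.37 and were not called. Among the angiogenic arrays, Angiogenic2006 held Alb at 11.30 and Serpina1c at 8.94, and Angiogenic2007 held them at 11.81 and 9.86. AngiogenicI-93 held 8.02 and 5.64, inside the range of normal islets, so the higher levels lay in 2 of 3 arrays. Without those 2 arrays, which were chosen after their values were seen, 1 angiogenic array is left, and the spread comes from the other groups. Its differences from normal islets were 0.75 for Serpina1c, 0.70 for Alb, 1.00 for Trf, -0.16 for Apoc3 and -1.57 for Gpx3. In that fit limma called 0 of the 7 against normal islets (3 at an unadjusted p below 0.05) and 0 against hyperplastic islets (1 at an unadjusted p below 0.05), with fewer arrays to make a call. Single arrays mattered as well: Alb and Apoc3 were no longer called without Angiogenic2006 (adjusted p = 0.0876 and 0.113), Angiogenic2007 (0.095 and 0.215) or Normal2006 (0.105 and 0.105), and Apoc3 also without NormalI-93 (0.0555) or Normal2007 (0.0501). Without AngiogenicI-93, Apoa2 was called higher too (0.86 ± 0.24, adjusted p = 0.0182). Against hyperplastic islets, Trf was called higher in angiogenic islets (1.40 ± 0.30, adjusted p = 0.0111), where 2.29% of all genes were. That call ended without Hyperplastic2007 (adjusted p = 0.0596) or Angiogenic2006 (0.0667), and 5 of the 7 genes were called higher without AngiogenicI-93. In hyperplastic against normal islets, Gpx3 was called lower (-1.14 ± 0.35, adjusted p = 0.0488), where 4.17% of all genes were, and the call ended on leaving out any of 5 of the 6 arrays (adjusted p from 0.0625 to 0.187).

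Hepatocyte genes that encode no plasma protein were set beside the 7, since liver tissue would carry both. Of 24 enzymes and carriers listed, 21 were measured. Between metastasis-like primaries and islet tumours, where 12.3% of all genes were called higher and 14.2% lower, 1 was called higher, the urea cycle enzyme Arg1 (0.46 ± 0.16, adjusted p = 0.0415), and 1 lower, the tyrosine aminotransferase Tat (-1.77 ± 0.18, adjusted p = 1.1e-07). The call of Arg1 ended on leaving out any of 5 single arrays (adjusted p from 0.0547 to 0.14, the highest without I-9812-MLP). Arg1 averaged 8.26 in normal islets and 6.26 in islet tumours, where limma called it lower (adjusted p = 5.98e-08). The source of its higher mean in metastasis-like primaries was not tested. The median of the 21 was -0.03, against -0.02 over all genes, and none had every metastasis-like primary above every islet tumour. Cyp2e1 held 5.11, 5.11, 4.84, 5.13 and 5.18 in metastasis-like primaries, against 5.48, 4.99, 5.16, 5.06 and 4.96 in islet tumours, a difference of -0.05 (95% interval -0.82 to 0.71). Cps1 differed by -0.03 (95% interval -0.44 to 0.38) and Bhmt, the enzyme that remakes methionine from homocysteine, by -0.01 (-0.48 to 0.46). The groups overlapped for all 3 genes.

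In liver metastases all 21 were higher than in metastasis-like primaries, where 7.8% of all genes were called higher, with a median of 2.58. Cyp2e1 reached 10.91, 10.25 and 9.78 there, and Cps1 10.20, 9.71 and 9.57. The mean over the 21 was 5.57 to 5.70 in metastasis-like primaries and 5.66 to 5.81 in islet tumours. It was 7.92 to 8.66 in liver metastases. Their summed linear intensity was 1199 to 1331 in metastasis-like primaries, 1348 to 1793 in islet tumours and 6704 to 11883 in liver metastases. The mean and the sum include Tat, which differed by -1.77 between metastasis-like primaries and islet tumours. Values without Tat were not computed, so the lower mean and sum are not read as less liver tissue. Arrays have no true 0, so none of these markers can be said to be absent.

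High Alb came with different levels of these enzymes. III-8016-MLP had Alb at 11.78 with Cyp2e1 at 5.13 and Cps1 at 5.70, whereas Angiogenic2007 had Alb at 11.81 with Cyp2e1 at 8.76 and Cps1 at 7.89. Angiogenic2006, with Alb at 11.30, had Cyp2e1 at 7.76 and Cps1 at 7.23, and AngiogenicI-93, with Alb at 8.02, had 5.65 and 6.22. At nearly the same Alb, the mean over all 21 enzymes, Tat included, was 5.63 in III-8016-MLP and 6.92 in Angiogenic2007. Islet tumours held 5.66 to 5.81. Apoa2 was 8.89 and 9.60 in Angiogenic2006 and Angiogenic2007, against 7.52 to 8.21 in metastasis-like primaries. The part of liver tissue in the values of the metastasis-like primaries, the angiogenic islets and the liver metastases was not tested.

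**Figure D2:**
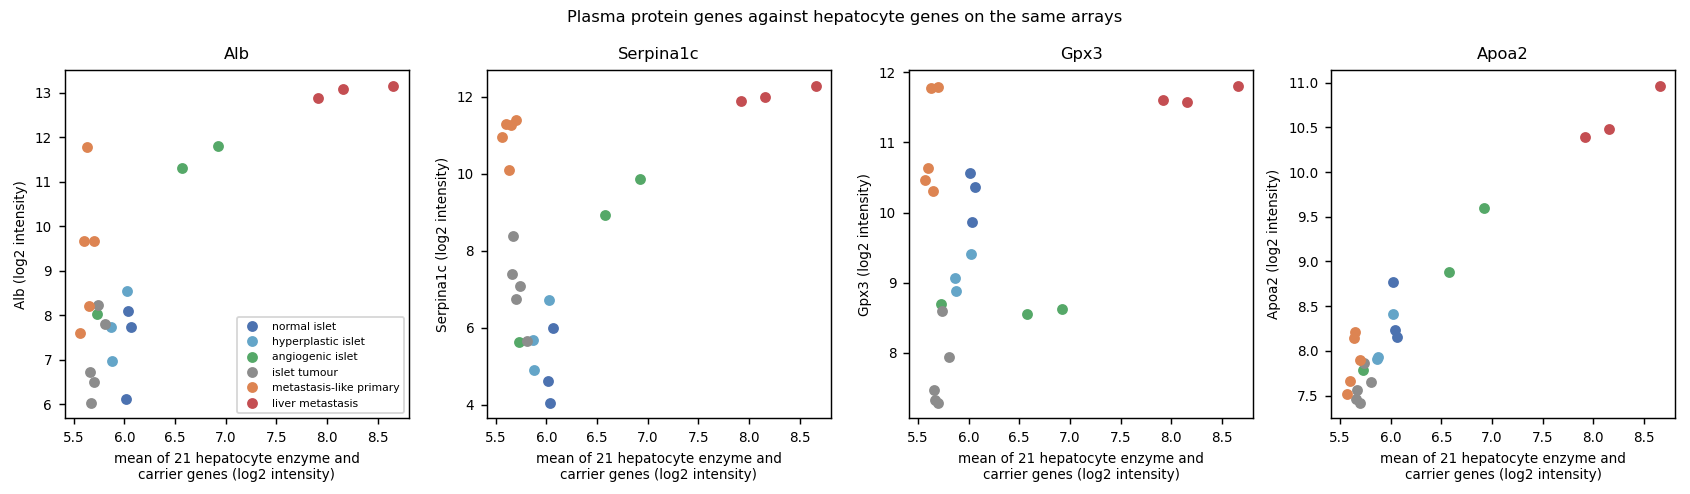
Log2 intensity of Alb, Serpina1c, Gpx3 and Apoa2 (vertical axes) against the mean log2 intensity of 21 hepatocyte enzyme and carrier genes (horizontal axes), with a point for each of the 22 arrays in the colour of its tissue. The 5 metastasis-like primaries lie between 5.57 and 5.70 on the horizontal axis whatever their Alb, Serpina1c or Gpx3. Angiogenic2006, Angiogenic2007 and the liver metastases lie to the right, and so do normal islets (6.02 to 6.07) and hyperplastic islets (5.86 to 6.02). The axis includes Tat, Arg1, Fah and Uox, called lower in islet tumours than in normal islets. It is not read as a scale of liver tissue alone.

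Genes of other liver cells were examined as well. Between metastasis-like primaries and islet tumours, 12.3% of all genes were called higher and 14.2% lower. Of 10 genes of Kupffer and liver sinusoid cells, limma called 0 higher in metastasis-like primaries than in islet tumours (0 also at an unadjusted p below 0.05) and 1 lower, the hyaluronan receptor Lyve1 (-1.16 ± 0.18, adjusted p = 4.15e-05). Of the 10, 6 were called higher in liver metastases than in metastasis-like primaries, where 7.8% of all genes were. The mean of the list was 6.33 to 6.45 in metastasis-like primaries and 6.36 to 6.50 in islet tumours, and 6.95 to 7.12 in liver metastases. Its summed linear intensity was 858 to 945 in metastasis-like primaries and 919 to 1105 in islet tumours. The mean and the sum include Lyve1, and values without Lyve1 were not computed.

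Of 31 other plasma proteins of the liver that were listed, 28 were measured, and limma called 3 higher in metastasis-like primaries than in islet tumours and 0 lower (4 and 1 at an unadjusted p below 0.05), with a median of 0.04. The count of 3 is near the share of all genes called higher (12.3%). The 3 were the retinol carrier Rbp4 (2.49 ± 0.19, adjusted p = 3.26e-09), transthyretin (Ttr, which carries thyroxine and binds Rbp4; 1.57 ± 0.12, adjusted p = 4.2e-09) and Itih2, a heavy chain of the inter-alpha-trypsin inhibitor (0.67 ± 0.15, adjusted p = 0.00206). Rbp4 held 11.72, 12.18, 11.23, 11.46 and 11.01 in metastasis-like primaries, against 8.50, 9.72, 8.84, 9.06 and 9.06 in islet tumours. Ttr held 12.74, 12.62, 12.47, 12.53 and 12.69 in metastasis-like primaries, against 11.11, 10.59, 11.62, 11.11 and 10.78 in islet tumours. Neither gene overlapped between the groups, and both were high in normal islets (9.94 to 10.48 for Rbp4 and 12.19 to 12.43 for Ttr). Rbp4 and Ttr differed by 0.21 and 0.22 between liver metastases and metastasis-like primaries and were not called there (adjusted p = 0.601 and 0.365).

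The fibrinogen chain Fgb was 5.99, 5.95, 5.73, 5.95 and 5.85 in metastasis-like primaries, against 5.96, 5.85, 5.81, 5.64 and 5.86 in islet tumours, a difference of 0.07 (95% interval -0.52 to 0.66). The heme carrier Hpx differed by -0.13 (-0.59 to 0.34) and apolipoprotein B (Apob), the backbone of low-density lipoprotein, by 0.04 (-0.29 to 0.38). Fetuin (Ahsg) was higher on single arrays, 7.48 in II-6413-MLP and 6.77 in II-648-MLP, but was not called (0.53 ± 0.41, adjusted p = 0.405). In liver metastases all 28 had higher means than in metastasis-like primaries and 26 were called, where 7.8% of all genes were called higher, with a median of 2.52, among them Hpx (5.17 ± 0.26), Fgb (4.75 ± 0.33) and Ahsg (4.56 ± 0.47).

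**Figure D3:**
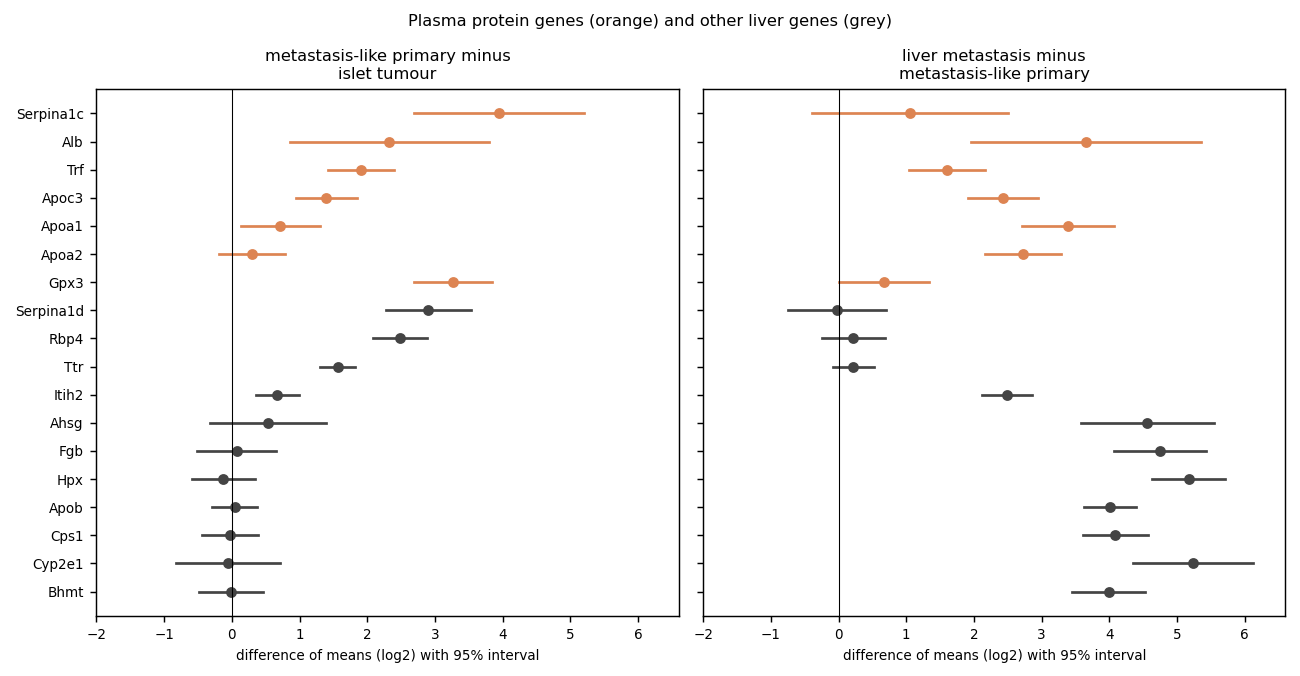
Difference of means with its 95% interval (log2, horizontal axes) for metastasis-like primaries minus islet tumours (left) and liver metastases minus metastasis-like primaries (right), for the 7 plasma protein genes in orange and 11 other genes in grey. The 11 were picked by name for the plot, not by a rule, and are only a part of their lists. Serpina1c, Gpx3, Trf, Serpina1d, Rbp4 and Ttr have the larger difference on the left. Fgb, Hpx, Apob, Cps1, Cyp2e1 and Bhmt lie near 0 on the left and at 3.99 or more on the right.

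Relatives of the 7 genes by family or pathway are to be read against the same shares of all genes, 12.3% called higher and 14.2% lower. Of 13 measured apolipoproteins and lipoprotein genes of 15 listed, 3 were called higher in metastasis-like primaries than in islet tumours and 1 lower. Apod, a lipocalin carried on high-density lipoprotein, was higher by 0.96 ± 0.14 (adjusted p = 1.62e-05), and the smaller rises of Apom (0.30) and the cholesterol-esterifying enzyme Lcat (0.28) had adjusted p of 0.0423 and 0.0475. Both smaller calls were lost under median centring (adjusted p = 0.0559 and 0.0529) and on leaving out 8 and 7 of the 10 single arrays, with adjusted p up to 0.11 and 0.129. Scarb1, the receptor that takes up cholesterol from high-density lipoprotein, was lower, with a difference of -0.86 ± 0.10 (adjusted p = 1.4e-06). Apoe and Apoc1 differed by -0.21 and -0.07 and were not called.

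Among 7 other glutathione peroxidases, Gpx7 (0.59 ± 0.09, adjusted p = 4.62e-05) and Gpx1 (0.44 ± 0.10, adjusted p = 0.00151) were higher in metastasis-like primaries and Gpx2, of the gut epithelium, was lower (-1.35 ± 0.18, adjusted p = 8.18e-06). Gpx4, which reduces lipid peroxides in membranes, differed by 0.14 and was not called. Of 13 measured iron genes, limma called 0 higher and 2 lower (1 and 5 at an unadjusted p below 0.05), the ferritin chain Ftl1 (-0.38 ± 0.09, adjusted p = 0.00407) and Meltf (-0.24 ± 0.08, adjusted p = 0.0256), whose call ended without I-9811-tumor (0.0782), III-8024-tumor (0.0633) or II-6413-MLP (0.0643). The transferrin receptor Tfrc differed by -0.20 (95% interval -0.57 to 0.18), the liver transferrin sensor Tfr2 by 0.18 (-0.07 to 0.43), the iron hormone Hamp by 0.01 (-0.36 to 0.39) and the ferroxidase Cp by 0.02 (-0.45 to 0.49). All 4 were higher in liver metastases than in metastasis-like primaries, Hamp by 1.88 ± 0.21 (adjusted p = 1.36e-06) and Cp by 2.60 ± 0.26 (adjusted p = 3.07e-07). Among the relatives of albumin, the fetal Afp differed by -0.11 and afamin (Afm) by 0.09 between metastasis-like primaries and islet tumours, and neither was called.

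Of 18 listed transcription factors of the liver, not all of them activators, 16 were measured. Of these, 3 were called higher and 3 lower in metastasis-like primaries than in islet tumours. These counts are near the shares of all genes called (12.3% higher and 14.2% lower). The bile acid receptor Nr1h4 held 7.88, 8.52, 8.01, 6.66 and 7.93 in metastasis-like primaries, against 6.15, 6.22, 6.14, 6.17 and 6.06 in islet tumours (1.65 ± 0.20, adjusted p = 1.89e-06). Its groups did not overlap, and III-8016-MLP, the array with the highest Alb, was the lowest of the metastasis-like primaries. Hnf4a was 8.96, 8.66, 8.53, 8.41 and 8.76 in metastasis-like primaries, against 7.99, 8.0, 8.15, 8.09 and 8.05 in islet tumours (0.61 ± 0.09, adjusted p = 1.23e-05), and Foxa1 was higher by 0.86 ± 0.15 (adjusted p = 2.00e-04). Hnf4a in normal islets was 8.33 to 8.40 and Nr1h4 7.59 to 7.89. Lower in metastasis-like primaries were Foxa3 (-1.10 ± 0.13, adjusted p = 1.45e-06), Hnf4g (-0.61 ± 0.18, adjusted p = 0.0122) and Prox1 (-0.30 ± 0.08, adjusted p = 0.00644). The call of Hnf4g ended without I-9812-MLP and III-8016-MLP (adjusted p = 0.0751). Cebpa, Foxa2 and Onecut1 differed by 0.11, -0.04 and -0.03 and were not called.

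**Figure D4:**
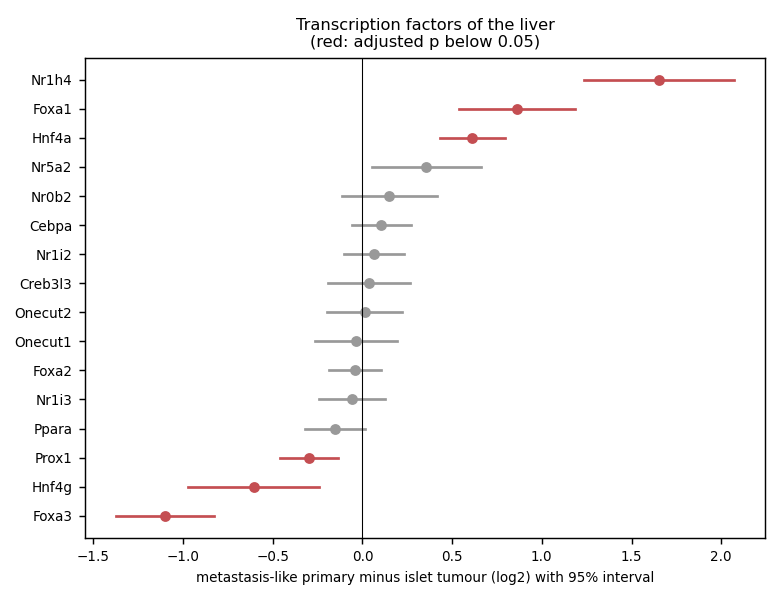
Difference of means between metastasis-like primaries and islet tumours (log2, horizontal axis, with 95% intervals) for 16 transcription factors of the liver, in red where the adjusted p was below 0.05. Nr1h4, Foxa1 and Hnf4a lie right of 0 and Foxa3, Hnf4g and Prox1 left of it.

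The genes whose log2 values most resembled those of each member over the 22 arrays, by Pearson's r, fell into different neighbourhoods; the arrays share groups and tissue content, and the values are a description. For Apoa1 they were the fibrinogen chain Fga (r = 0.95), Apoh (0.95) and Apob (0.95), and for Apoa2 Fgb (0.97), plasminogen (Plg, 0.97) and Cyp3a11 (0.96), all genes of hepatocytes. Apoc3 was most like Serpina6 (0.95), the carrier of corticosteroids, Itih2 (0.95) and Sec14l2 (0.94). Serpina1c was most like Serpina1d (0.95), the lactate transporter Slc16a1 (0.92) and Wdr77 (0.91), and Trf like Hs3st1 (0.95), Slc7a6 (0.95) and Oat (0.95). Gpx3 was most like Rcn2, Ckb and Syt5 (0.94 each). Alb had the lowest values, with Tgfbi (0.89), Cyp2c37 (0.87) and Nkd1 (0.87).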

How the data were processed

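Per the labels' protocols, TRIzol-purified total RNA was amplified and biotin-labelled, and the authors processed the scanned images with aroma.affymetrix, per the series text. Neither its version nor its settings are stated in these sources. The deposited values span 1.90 to 14.32, which sets the unit as log2 intensities, over 35511 probe sets and 22 arrays. Of these, 21789 carry 1 gene symbol in the platform annotation, 1621 carry several and were used for no single gene, and the others are not listed. The probe set with the highest mean stood for each of 19938 genes. No array duplicated another (highest correlation 0.9931). Their number limits the precision.

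Groups were taken from the tissue label. A model with 6 group means was fitted to all arrays with limma 3.58.1 in R 4.3.3. P-values are two-sided from limma's moderated test, Benjamini-Hochberg adjusted over all genes, and called below 0.05; the script was tested on simulated data. The plasma protein genes and all lists were chosen with earlier results of these data known. Named genes were the 7, measured members of the short family lists, cell type markers, and 3 most similar genes per member outside the 7. Added to these were up to 6 genes of each other list with the smallest adjusted p between metastasis-like primaries and islet tumours. Hpx, Ahsg, Bhmt, Cebpa, Foxa2 and Onecut1 were named outside this rule. Some genes under it, such as Proc, Vtn and Hp, are not described. Alternatives were quantile normalization, median centring, a filter removing the dimmest 25% of genes, all probe sets, array weights, trended and robust variance, the compared arrays alone, the code in the titles as a block, and each array left out. Chosen after seeing the data were a covariate (the hepatocyte enzyme mean), leaving out Angiogenic2006 and Angiogenic2007 together or I-9812-MLP and III-8016-MLP together, and the joint Serpina1 probe sets. Early islets share the codes I-93, 2006 and 2007. Deviations from group means correlated between same-coded samples by 0.353 to 0.479 for angiogenic and hyperplastic islets, 0.197 to 0.448 for hyperplastic and normal islets and 0.0568 to 0.144 for angiogenic and normal islets. Between differently coded samples they were lower, from -0.393 to 0.039 over the 3 pairs of groups. Every same-coded pair lay above every differently coded pair, so the codes may mark paired samples. The unblocked fit was kept because not every same-coded pair of angiogenic and normal islets was over 0.1. Its p-values between early islets ignore any such pairing. In the fit with a block, I-93 islets shared a block with the tumour samples of prefix I. Promoter sequences are from RefSeq. Sets were described by counts and medians, not tested.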

Additional observations from a re-analysis of the deposited data

How the results depend on the processing

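Under all alternatives run, each of the 7 genes kept its direction between metastasis-like primaries and islet tumours. That contrast chose the genes on these same arrays, so nothing is read from the kept direction. With the hepatocyte enzyme mean as a covariate their median difference there was 1.97. That covariate, chosen after seeing the data, is nearly fixed by group in comparisons with liver metastases. With it, the number of the 7 called was 1 in liver metastases against normal islets, 0 against angiogenic islets, 3 in angiogenic against normal islets, 0 in angiogenic against hyperplastic islets and 0 in hyperplastic against normal islets. Median differences with it were -0.71 for liver metastases minus metastasis-like primaries, 0.78 for liver metastases minus islet tumours, 1.80 for metastasis-like primaries minus normal islets and 0.30 for islet tumours minus normal islets. Signs turned under it for Alb (-0.43, -2.47, -3.65 and -1.08) in liver metastases minus normal islets, angiogenic islets, metastasis-like primaries and islet tumours, for Apoa2 (-0.71, -0.60, -0.77 and -0.36) in the same order, and for Serpina1c in liver metastases minus angiogenic islets (-0.96) and islet tumours (-1.70). They also turned for Serpina1c (-5.88), Trf (-0.086) and Apoc3 (-0.71) in liver metastases minus metastasis-like primaries and for Apoa2 in metastasis-like primaries minus normal islets (0.054). Smaller differences that turned were Apoa1 in metastasis-like primaries minus normal islets (0.43), Alb and Apoc3 in islet tumours minus normal islets (0.65 and 0.30), Apoa1 in angiogenic minus hyperplastic islets (-0.15) and Apoa2 in angiogenic minus normal islets (-0.12). The cause was not tested.

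Without Angiogenic2006 and Angiogenic2007, 1 angiogenic array remains and is assumed to vary like the other groups. Limma then called 0 of the 7 against normal islets and 0 against hyperplastic islets (3 and 1 at an unadjusted p below 0.05). Against normal islets Gpx3 kept its size (-1.57), while Trf differed by 1.00 and Apoc3 by -0.16. The count in hyperplastic against normal islets was 0 under quantile normalization, all probe sets, and trended variance. Hepatocyte enzymes called between metastasis-like primaries and islet tumours numbered 1 with all probe sets and 1 without I-9812-MLP and III-8016-MLP, where Arg1 was lost. Those called between liver metastases and metastasis-like primaries numbered 9 without dim genes, where fewer were tested. With the title code as a block, the median difference was 1.96 for metastasis-like primaries minus normal islets, against 1.30 in the main fit. For islet tumours minus normal islets it was 0.56, against -0.26 in the main fit, so its sign turned. The higher Hnf4a and Nr1h4 in liver metastases than in metastasis-like primaries lost their calls with the block (adjusted p = 0.118 and 0.148). The block changed no call of the 7.

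Leaving out single arrays gave 7 to 7 of the 7 called in liver metastases against normal islets, 6 to 7 against angiogenic islets, 3 to 6 in angiogenic against normal islets, 0 to 5 in angiogenic against hyperplastic islets and 0 to 1 in hyperplastic against normal islets. Hepatocyte enzymes called ranged from 1 to 2 between metastasis-like primaries and islet tumours and from 20 to 21 between liver metastases and metastasis-like primaries. Median differences of the 7 ranged from 1.66 to 2.07 between metastasis-like primaries and islet tumours and from -0.60 to -0.05 between islet tumours and normal islets. Groups of 3 to 5 arrays and values near the array median in islets limit all of this.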

Other observations

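Tat, listed among the hepatocyte enzymes, did not mark liver tissue alone in these samples: it held 9.44 to 9.56 in normal islets, 6.42 to 6.88 in metastasis-like primaries, 8.15 to 9.37 in islet tumours and 9.05 to 9.55 in liver metastases. Of the 21 hepatocyte enzymes and carriers, limma called 4 lower and 0 higher in islet tumours than in normal islets, Tat among them. The share of all genes called in that comparison is not given, so nothing is read from the count. The others were Arg1 (mean 6.26 against 8.26), Fah (7.66 against 8.40) and Uox (5.25 against 6.08). These genes are therefore not read as markers of liver tissue alone. All 9 beta cell genes measured were called lower in metastasis-like primaries than in islet tumours, where 14.2% of all genes were. Their median was -1.68, and they included the insulin gene Ins2 (-0.84 ± 0.09) and its activator Mafa (-1.43 ± 0.16). Of 10 genes of enterocytes and kidney tubule, 1 was called higher in metastasis-like primaries, a count near the share of all genes (12.3%). It was Cubn, a receptor for albumin, transferrin and Apoa1 (0.55 ± 0.07, adjusted p = 6.07e-06). Cubn differed by -0.16 between liver metastases and metastasis-like primaries (not called). Of 6 measured adipocyte genes, limma called 0 between metastasis-like primaries and islet tumours (0 also at an unadjusted p below 0.05), and likewise 0 of 7 acinar genes (0 unadjusted) and 0 of 2 red blood cell genes (0 unadjusted).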
